A study of Saccharomyces cerevisiae with 8 samples.

Results

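The genes described here are the Gag and Gag-Pol genes of the yeast Ty retrotransposons. They were chosen by their annotation, as every gene row whose description holds the words Retrotransposon TYA, and 90 of the 6691 gene rows in the tables met this rule. The rule used no measured value. Of the 90 genes, 62 belonged to Ty1 (32 Gag and 30 Gag-Pol), 20 to Ty2 (10 Gag and 10 Gag-Pol), 4 to Ty3 (2 Gag and 2 Gag-Pol) and 4 to Ty4 (2 Gag and 2 Gag-Pol). They lay on 15 chromosomes, 88 of them in 45 annotated elements.

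In ribosome profiling, mRNA is digested with nuclease and the pieces covered by a translating ribosome, called ribosome protected fragments (RPFs), are sequenced. RPF libraries of 4 evolved Saccharomyces cerevisiae strains were analysed, each grown under glutamine limitation in chemostats in 2 biological replicates, and the ancestor was not analysed here. All 4 strains derive from the FY4/S288C background, and each is 1 clone carrying its own copy number variant (CNV) around GAP1, the general amino acid permease gene on chromosome XI. Trans (DGY1726) carries a tandem duplication formed through a transposon, placed within a translocation to chromosome VIII with telomere replacement, and another CNV on chromosome V. ODIRA_A (DGY1735) and ODIRA_B (DGY1743) carry triplications of different length formed by origin-dependent inverted repeat amplification. ComQuad (DGY1741) carries such a triplication with a further copy of GAP1 gained through a transposon. The clones of Trans and ODIRA_A come from generation 150, those of ComQuad and ODIRA_B from generation 250. Time of isolation, CNV and any other mutation of a clone cannot be told apart. Cycloheximide, which halts elongating ribosomes, was added to all cultures shortly before harvest.

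Ty elements are long terminal repeat retrotransposons, which copy themselves through an RNA that is packaged in particles in the cytoplasm and reverse transcribed to DNA. TYA encodes Gag, the coat protein of these particles, and TYB encodes Pol, a polyprotein of protease, integrase, reverse transcriptase and RNase H. TYB has no start of its own: ribosomes reach it by slipping 1 base forward near the end of TYA, so that most make Gag and a minority make the Gag-Pol fusion. Most copies lie close to tRNA genes, and many copies of 1 family are nearly identical.

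The slip site is what separates the genes called Gag from those called Gag-Pol, and it is shown here for 1 element of each family, 5′ to 3′ in the sense of the gene, from the R64 reference (RefSeq). Capitals mark the heptamer on which the ribosome shifts, CTTAGGC in Ty1, Ty2 and Ty4 and GCGAGTT in Ty3.
YDR316W-B (Ty1, chrIV:1097350-1097389, plus strand): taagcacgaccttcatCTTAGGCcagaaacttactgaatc
YBL100W-B (Ty2, chrII:31209-31248, plus strand): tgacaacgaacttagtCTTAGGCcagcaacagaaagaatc
YHL009W-B (Ty4, chrVIII:86976-87015, plus strand): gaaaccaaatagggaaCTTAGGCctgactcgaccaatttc
YGR109W-B (Ty3, chrVII:708446-708485, plus strand): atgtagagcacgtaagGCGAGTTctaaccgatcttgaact
The heptamer CTTAGGC stood at the annotated slip site of 40 of 40 Ty1, Ty2 and Ty4 Gag-Pol genes that have one, and GCGAGTT at that of 2 of 2 Ty3 genes. Of all 40-base windows of the genome, 0.0704% hold the first heptamer and 0.0828% the second, on either strand.

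Gag and Gag-Pol rows start at the same base in 41 elements (28 Ty1, 10 Ty2, 2 Ty3 and 1 Ty4), so each RPF on Gag was counted in both rows of its element. RPFs on Pol alone were therefore taken as the Gag-Pol row minus the Gag row, and are called downstream RPFs below.

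Near-identical copies set what the count of a single Ty gene can mean. Each gene was cut into overlapping 28-base windows, a length near that of an RPF, and each window was looked up in the genome on both strands. In the median Ty1 gene 94.2% of windows occurred more than 10 times, against 61.4% in the median Ty2 gene and 0% in the median Ty3 and Ty4 genes. The 2 Ty1 Gag genes in which every window occurred more than 10 times, YDR316W-A and YGR161C-C, are identical in sequence and held 1 and 0 RPFs over all 8 libraries. In all, 19 genes formed 8 groups of identical sequence, and in 3 groups the counts were the same in every library. In the other 5 they differed in at least 1 library. YDR365W-A, YER137C-A and YLR157C-A each held 44, 37, 8, 1, 35, 3, 19 and 37 RPFs in the 8 libraries, and YPL257W-A, of the same sequence, held 46, 37, 8, 1, 36, 3, 19 and 37. The pair farthest apart by RPFs, YER159C-A and YMR051C, held 67 and 101 RPFs over all libraries. Most copies of identical sequence thus held the same or nearly the same counts. How the authors treated reads with several matches is not given in the sources used here. Rows of 1 family share reads, and a count of rows is not a count of independent elements.

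The 32 Ty1 Gag genes divided accordingly into 3 classes, drawn after their values were seen. Diverged copies, under 92% identical to YDR316W-A, were YMR046C (85.5%), YBL005W-A (85.6%), YDR170W-A (86.2%) and YNL284C-A (90.7%), and they held between 5069 and 6598 RPFs over the 8 libraries. A further 5 genes, YAR010C, YGR027W-A, YJR028W, YNL054W-A and YPR137C-A, held between 3098 and 3446 RPFs. The other 23 held between 0 and 891. Across the 32 Ty1 Gag genes, RPFs and the number of windows found at most 10 times had a Spearman correlation of 0.764, and across the 30 Ty1 Gag-Pol genes of 0.786. Genes are not independent replicates, these share reads, and no test was made.

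**Figure D1:**
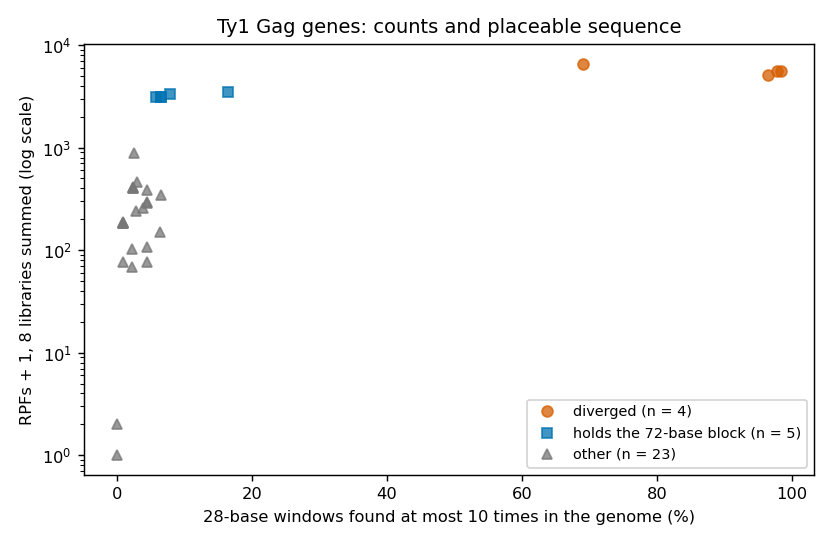
RPFs of each of the 32 Ty1 Gag genes, summed over the 8 libraries and plotted as RPFs + 1 on a log scale, against the share of its 28-base windows that occur at most 10 times in the genome. The 4 diverged genes lie at the top with 5069 to 6598 RPFs, the 5 genes with the shared 72-base block at 3098 to 3446, and the other 23 at 0 to 891.

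What the 5 genes share is a block at bases 193 to 264 of Gag, counted from 1 at the A of its ATG, which YNL284C-A also holds with 1 more change and whose 28-base windows occur 5 or 6 times in the genome. It is shown beside the same bases of a diverged copy and of YDR316W-A, the copy with 1 RPF, with capitals at the bases that differ from YDR316W-A.
YPR137C-A (chrXVI:810006-810077, minus strand): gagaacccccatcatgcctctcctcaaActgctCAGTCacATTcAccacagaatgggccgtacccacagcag
YNL284C-A (chrXIV:101969-102040, minus strand): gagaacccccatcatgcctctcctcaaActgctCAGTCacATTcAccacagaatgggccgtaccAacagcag
YBL005W-A (chrII:221522-221593, plus strand): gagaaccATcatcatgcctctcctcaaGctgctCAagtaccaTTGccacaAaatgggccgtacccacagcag
YDR316W-A (chrIV:1096256-1096327, plus strand): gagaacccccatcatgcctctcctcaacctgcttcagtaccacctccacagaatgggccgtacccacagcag
YPR137C-A differs from YDR316W-A at 10 of the 72 bases, YNL284C-A at 11 and YBL005W-A at 9. The tables give 1 count per row and no position within it, so whether the RPFs of these genes lie in the block was not tested.

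As a share of each library, the RPFs counted on Ty rows were few. The Gag-Pol rows of all 4 families together held 0.213% and 0.278% of all RPFs on coding sequence (CDS) in the 2 Trans libraries, 0.127% and 0.129% in ODIRA_A, 0.158% and 0.158% in ComQuad, and 0.211% and 0.248% in ODIRA_B. These sums count a read once for each copy that it was assigned to, and hold no read that was assigned to none. How many Ty reads were left out is not known, so the sums are not the full level of Ty translation. Library depth ran from 3723082 to 11459498 RPFs on CDS, lowest in ODIRA_B with 3923583 and 3723082. Levels of single genes are given as CPM, the RPFs per 1000000 of the normalized library size, which compare libraries and not genes. Values below are given in the order Trans 1, Trans 2, ODIRA_A 1, ODIRA_A 2, ComQuad 1, ComQuad 2, ODIRA_B 1, ODIRA_B 2.

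The families did not follow each other. The Ty1 Gag-Pol rows held 0.0863%, 0.144%, 0.0488%, 0.0452%, 0.0766%, 0.0693%, 0.150% and 0.177% of CDS RPFs. Both ODIRA_B libraries were above the other 6 and both ODIRA_A libraries below them, with Trans 2 close to ODIRA_B and Trans 1 close to ComQuad. The mean was 0.163% ± 0.0194 (SD, n = 2) in ODIRA_B and 0.0470% ± 0.00253 in ODIRA_A, a ratio of 3.48 that ran from 3.18 to 3.77 when any 1 of the 4 libraries was left out. The ratio of Trans to ODIRA_A was 2.45 and less settled, from 1.84 to 3.07, because the Trans replicates differed.

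Ty2 stood highest in another strain. Its Gag-Pol rows held 0.113%, 0.118%, 0.0657%, 0.0729%, 0.0658%, 0.0740%, 0.0530% and 0.0597% of CDS RPFs, so that both Trans libraries were above the other 6, ODIRA_A and ComQuad overlapped, and both ODIRA_B libraries were lowest. The ratio of Trans to ODIRA_A was 1.67, and from 1.58 to 1.76 with 1 library left out. Ty3 held 0.0102%, 0.0127%, 0.00901%, 0.00713%, 0.0115%, 0.0109%, 0.00637% and 0.00717%, with Trans and ComQuad above ODIRA_A and ODIRA_B. Ty4 held 0.00394%, 0.00293%, 0.00349%, 0.00356%, 0.00360%, 0.00393%, 0.00232% and 0.00349%, and its strains overlapped. No test was made on these sums.

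**Figure D2:**
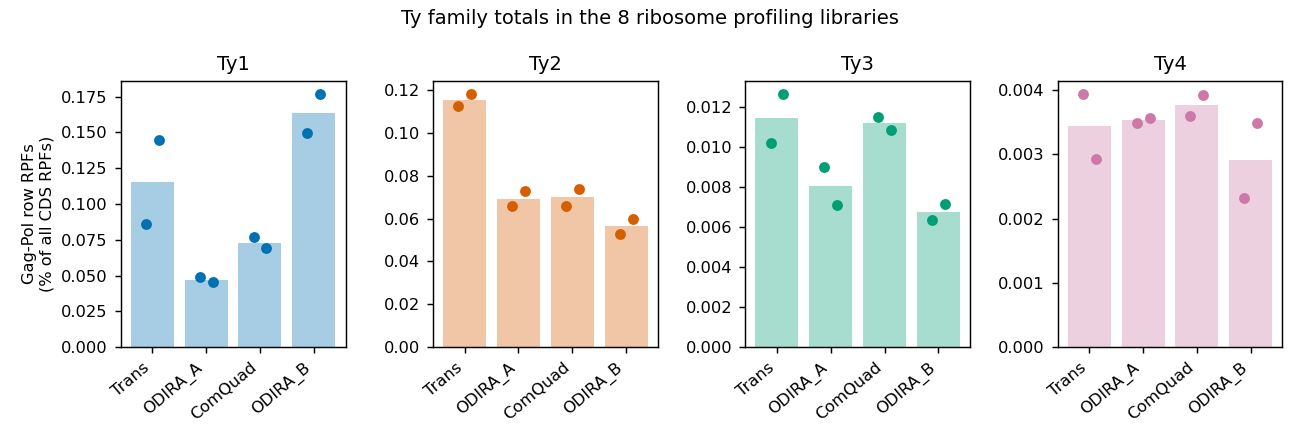
RPFs on the Gag-Pol rows of each Ty family as a percentage of all CDS RPFs, by strain. Points are the 2 libraries of a strain. Ty1 is highest in ODIRA_B (0.150% and 0.177%) and lowest in ODIRA_A (0.0488% and 0.0452%), Ty2 is highest in Trans (0.113% and 0.118%).

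Each gene was then tested for differences among the 4 strains with edgeR's quasi-likelihood F test over the 5813 genes that reached 10 RPFs in 2 or more libraries, with Benjamini-Hochberg adjustment and a threshold of 0.05. Of the 90 Ty genes, 86 passed the filter on counts. The other 4 were YDR316W-A and YGR161C-C, described above, and both Ty3 Gag genes, YGR109W-A and YIL082W. Of the 86, 78 were called, against 44.2% of all tested genes: 56 of 60 for Ty1, 20 of 20 for Ty2, 2 of 2 for Ty3 and 0 of 4 for Ty4, where 1 row had an unadjusted p under 0.05 and DESeq2 called 0. Between replicates, the SD of the log2 ratio was larger over the Ty rows than over all genes in each strain. It was 0.577 against 0.438 in Trans, 0.563 against 0.342 in ODIRA_A, 0.593 against 0.247 in ComQuad and 0.38 against 0.31 in ODIRA_B.

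**Figure D3:**
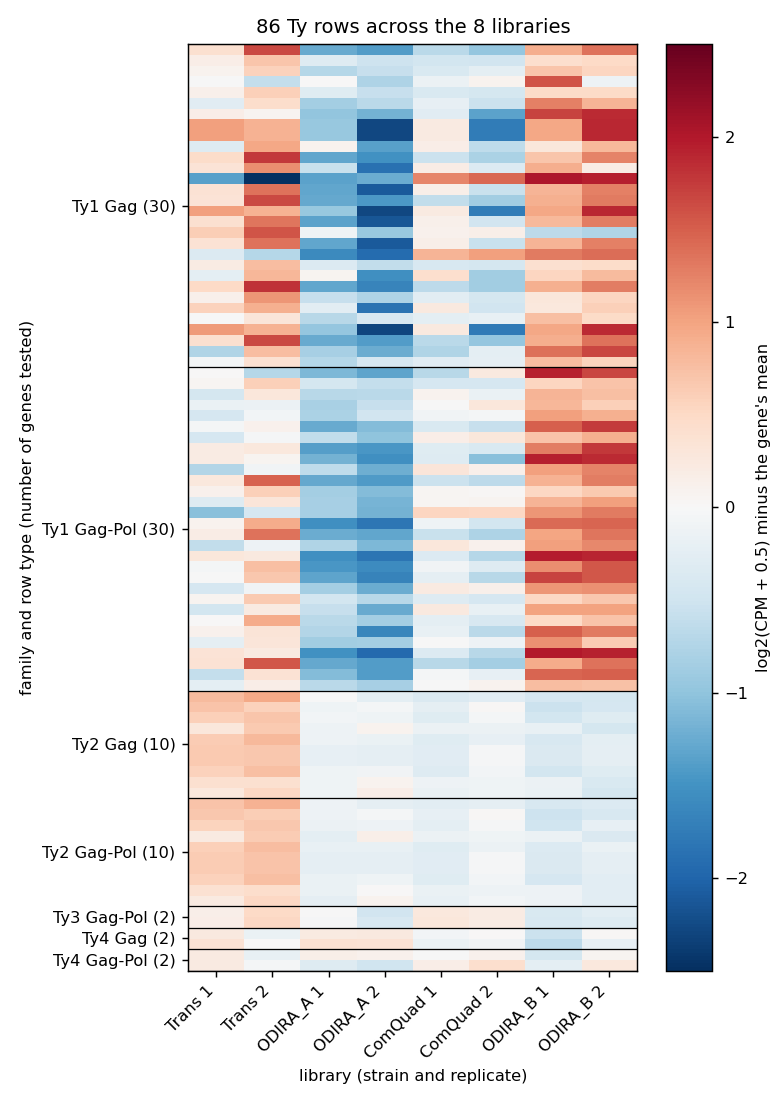
Normalized RPF level of the 86 tested Ty rows (lines, grouped by family and row type) in the 8 libraries (columns), as log2(CPM + 0.5) minus the mean of the row. Red is above and blue below the row's mean. Most Ty1 Gag-Pol rows are highest in ODIRA_B and lowest in ODIRA_A, and the 20 Ty2 rows are highest in Trans.

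The rows followed the family sums. In CPM, both ODIRA_B libraries lay above the other 6 in 23 of 30 Ty1 Gag-Pol rows and in 7 of 30 Ty1 Gag rows, which 12.8% of all tested genes did. Both ODIRA_A libraries lay below the other 6 in 28 of 30 Ty1 Gag-Pol rows and 16 of 30 Ty1 Gag rows, against 11.3% of all genes. Both Trans libraries lay above the other 6 in all 20 Ty2 rows, against 6.12% of all genes. Both ODIRA_B libraries lay below the other 6 in 7 Ty2 rows, 5 of them Gag, against 10.5%.

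ODIRA_A and ODIRA_B, the 2 strains with the same kind of CNV, had 56 of 86 Ty rows called, where 23.1% of all genes were called. Of these, 55 were higher in ODIRA_B, all of Ty1, against 13% of all genes called in that direction. Of the 30 Ty1 Gag-Pol rows 30 were called and of the 30 tested Gag rows 25, and the median log2 fold change of ODIRA_A over ODIRA_B was −2.44 over Ty1 and 0.011 over all genes. By edgeR and by DESeq2 1 row was higher in ODIRA_A, by edgeR YJL114W, a Ty4 Gag gene, against 10% of all genes. Ty2 had 0 called rows of 20 here, with 2 at an unadjusted p under 0.05 and 0 called by DESeq2, and a median of 0.20.

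ComQuad lay between these strains for Ty1. Of the Ty rows, 24 were higher in ComQuad than in ODIRA_A, all of Ty1 and 19 of them Gag-Pol, against 16.4% of all genes in this direction and 33.2% in either, with a median of −0.83 for ODIRA_A over ComQuad. None was higher in ODIRA_A by edgeR or DESeq2, with 1 at an unadjusted p under 0.05, against 16.8% of all genes. A further 40 rows were higher in ODIRA_B than in ComQuad, all of Ty1, against 15.1%, with a median of −1.16 for ComQuad over ODIRA_B. By edgeR 1 row was higher in ComQuad, YIL082W-A, a Ty3 Gag-Pol gene, against 10% of all genes. DESeq2 called 2, both of Ty3, and YGR109W-B had an adjusted p of 0.0505 by edgeR. The count of ODIRA_A against ComQuad depended on single libraries: it was 7 without ODIRA_A replicate 2 and 9 without ComQuad replicate 1, where 22.2% and 18% of all genes were called, and 44 and 42 without Trans replicate 1 or 2, where 46.1% and 46.2% were. That of ComQuad against ODIRA_B, 41 in either direction against 25.1% of all genes, was 21 without ComQuad replicate 2, and 26 and 25 without ODIRA_B replicate 1 or 2, where 12.8%, 11.8% and 13% of all genes were called.

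Trans differed from the others through both main families. Over ODIRA_A, 46 rows were higher in Trans, 32 of Ty1 and 14 of Ty2, against 3.73% of all genes in this direction and 4.9% in either. None was lower by edgeR, by DESeq2 or at an unadjusted p under 0.05, against 1.17% of all genes lower by edgeR. The medians of Trans over ODIRA_A were 1.40 for Ty1 and 0.77 for Ty2. This count depended strongly on single libraries. It fell when either ODIRA_A library was left out, as did the share of all genes called. Such a fit leaves 1 ODIRA_A library. Over ComQuad, 39 rows were higher in Trans, among them all 20 Ty2 rows and 19 of Ty1, against 16.6%, and 3 Ty1 rows were higher in ComQuad, against 14.4%. In either direction 31% of all genes were called. Without ComQuad replicate 2 the 42 calls were 25, with 15.9% of all genes called.

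Against ODIRA_B the called rows of Ty1 and Ty2 lay in opposite directions, all but 1. Higher in Trans were 23 rows, all 20 of Ty2, both tested Ty3 rows and 1 of Ty1, against 8.88% of all genes. Higher in ODIRA_B were 25 rows, all of Ty1, of which 22 were Gag-Pol, against 10.4%. The medians of Trans over ODIRA_B were 0.97 for Ty2, −1.10 for the Ty1 Gag-Pol rows and −0.15 for the Ty1 Gag rows. Leaving out ODIRA_B replicate 1 or 2 left 27 calls in place of 48 (19.2% of all genes in either direction), 14 higher in Trans and 13 higher in ODIRA_B each time, with 6.49% and 6.2% of all genes called. With each family summed to 1 feature, Ty1 was not called between Trans and ODIRA_B. The 6 comparisons share libraries and are not independent of each other.

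**Figure D4:**
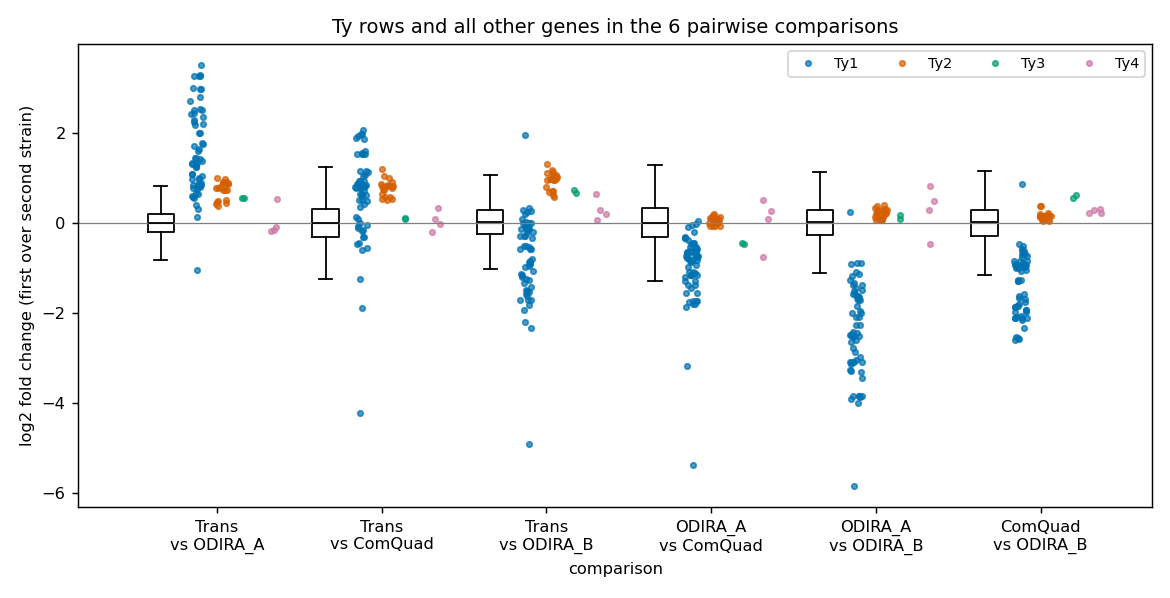
Log2 fold change (first over second strain) of each tested Ty row, coloured by family, in the 6 pairwise comparisons. Ty1 rows have medians of −2.44 for ODIRA_A over ODIRA_B and 1.40 for Trans over ODIRA_A, while Ty2 rows have 0.20 and 0.77.

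The Ty1 Gag gene with the highest density of RPFs per kb was YNL284C-A (chrXIV:100910-102232, minus strand), with 949, 1746, 566, 592, 1070, 640, 473 and 562 RPFs, or 118, 231, 72.04, 62.7, 88.8, 79.5, 131 and 156 CPM. Trans 2 was highest and the 2 Trans libraries lay on either side of ODIRA_B. Its log2 fold change was 1.37 ± 0.266 (SE) for Trans over ODIRA_A (adjusted p = 0.0198, edgeR) and −1.09 ± 0.27 for ODIRA_A over ODIRA_B (adjusted p = 0.0185).

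YBL005W-A, the Gag gene of a diverged Ty1 in which 1.54% of windows occurred over 10 times, is the Ty1 gene with the smallest share of such windows. It held 106, 153, 75.4, 65.6, 68.3, 67.7, 127 and 134 CPM, so Trans and ODIRA_B overlapped, as did ODIRA_A and ComQuad, and both of the first lay above both of the second. Trans over ODIRA_B was −0.01 ± 0.167 (adjusted p = 0.972), while ODIRA_A over ODIRA_B was −0.89 ± 0.17 (adjusted p = 0.00392). YPR137C-A, shown above for its block, had a wider range, with 482, 1081, 147, 159, 339, 186, 308 and 421 RPFs. Its ODIRA_A over ODIRA_B value was −2.51 ± 0.382 (adjusted p = 0.00191), and the difference between the 2 genes was not tested.

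YLR256W-A, named after its values were seen, was the 1 Ty1 row higher in Trans than in ODIRA_B. It held 151, 279, 87, 57, 157, 108, 27 and 25 RPFs, or 18.8, 36.8, 11.1, 6.04, 13.0, 13.4, 7.46 and 6.95 CPM. Both Trans libraries were above the other 6, and the ODIRA_B libraries lay between those of ODIRA_A. Its Trans over ODIRA_B value was 1.94 ± 0.394 (adjusted p = 0.00745). Of its 1296 windows, 32 occurred at most 10 times, all of them only once, within its first 59 bases. ODIRA_A over ODIRA_B was 0.23 ± 0.426 (adjusted p = 0.728), where 25 other Ty1 Gag rows were higher in ODIRA_B. The insertion sites of Ty elements in these strains were not analysed here.

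YHR214C-C (chrVIII:547910-549346, minus strand) is the Gag gene near the translocation site of Trans on chromosome VIII. It was lower in Trans and ODIRA_A than in ComQuad and ODIRA_B. It held 6, 0, 6 and 8 RPFs in the 4 libraries of Trans and ODIRA_A, and 83, 65, 45 and 42 in those of ComQuad and ODIRA_B, with no overlap. ODIRA_A over ComQuad was −3.18 ± 0.519 (adjusted p = 0.000894) and ODIRA_A over ODIRA_B −3.87 ± 0.531 (adjusted p = 0.000566). Only 53 of its 1410 windows occurred at most 10 times, and 28 of them, at bases 173 to 227, lie in a stretch that it shares with YML045W-A alone and that differs by the single change C200T from YDR316W-A (base of YDR316W-A first, positions from the A of ATG). The other 25, at bases 602 to 653, occur only once. The stretch at bases 173 to 227 is shown because 1 base sets it apart from YDR316W-A, with that base in capitals.
YHR214C-C (chrVIII:549120-549174, minus strand): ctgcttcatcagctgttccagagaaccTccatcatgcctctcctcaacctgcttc
YML045W-A, on chromosome XIII, held 8, 5, 1, 0, 35, 27, 15 and 16 RPFs, again with the 4 libraries of generation 250 above the 4 of generation 150. Where in these rows the RPFs lay was not tested. The study reports a telomere replacement on chromosome VIII in Trans, and whether Trans still holds the element of YHR214C-C was not tested.

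The Gag-Pol row of the same element, YHR214C-B, moved with its Gag row at 9.69, 15.2, 11.3, 8.69, 29.6, 29.3, 44.5 and 51.1 CPM. Trans over ComQuad was −1.25 ± 0.221 (adjusted p = 0.00186) and Trans over ODIRA_B −1.94 ± 0.228 (adjusted p = 0.000303). YLR035C-A, a Gag-Pol row of 3468 bases on chromosome XII, had a like order, with 12.9, 18.4, 11.7, 9.01, 24.4, 21.6, 41.7 and 47.0 CPM. ODIRA_A over ODIRA_B was −2.10 ± 0.222 (adjusted p = 0.000115).

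The other Ty1 rows with the smallest adjusted p over the 4 strains were Gag-Pol rows that were higher in ODIRA_B. YDR261C-D had the smallest (adjusted p = 5.99e-06), with 133, 139, 54, 74, 156, 91, 178 and 212 RPFs, or 16.5, 18.4, 6.87, 7.84, 13.0, 11.3, 49.2 and 58.9 CPM, and both ODIRA_B libraries lay far above the rest. YLR157C-B, YPL257W-B, YDR365W-B, YML039W and YLR227W-B followed the same order, with ODIRA_A over ODIRA_B between −4.01 and −2.97 and adjusted p from 9.75e-06 to 6.72e-05. YER138C (chrV:443756-449024, minus strand), whose near end lies 1937 bases from YER137C, the last gene of the chromosome V CNV of Trans, held 81, 69, 28, 25, 82, 32, 126 and 118 RPFs. It lay outside that CNV if the CNV ends in YER137C, which the study calls likely. The study's diagram of this CNV carries the labels ODIRA TY and ODIRA SAK1. Whether the element of YER138C lies at an end of the CNV was not tested. YER138C was highest in ODIRA_B, and its ODIRA_A over ODIRA_B value was −3.45 ± 0.303 (adjusted p = 3.34e-05, edgeR). Its Gag gene YER137C-A is 1 of the identical copies listed above.

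YER138C, YLR157C-B, YPL257W-B and YML039W belong to 7 Ty1 Gag-Pol genes that share a block within Pol, at bases 4994 to 5038 of YER138C, whose windows occur 7 times each, and the others are YAR009C, YJR027W and YOL103W-B. It is shown for YER138C beside YDR316W-B, with capitals at the 7 bases that differ, since windows with these changes occur in these 7 copies alone.
YER138C (chrV:443987-444031, minus strand): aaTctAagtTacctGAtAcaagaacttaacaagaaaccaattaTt
YDR316W-B (chrIV:1101057-1101101, plus strand): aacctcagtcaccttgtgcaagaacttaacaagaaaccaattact
Downstream RPFs of YLR157C-B were 28, 29, 9, 15, 33, 31, 89 and 66, so that the 2 ODIRA_B libraries, the shallowest of all, held the most. Over the 7 genes, which were picked after their values were seen, the median (with the whole row for YAR009C, which has no nested Gag row) was 4.61, 3.74, 2.16, 1.92, 3.22, 3.73, 22.6 and 17.7 CPM, here relative to the summed RPFs of all genes. Over the other 22 Ty1 elements it was 8.66, 12.6, 6.55, 6.26, 12.7, 11.6, 23.6 and 29.4. Whether the RPFs of the 7 genes lie in the block was not tested.

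Downstream RPFs are those that lie past Gag in the row. Whether they all come from ribosomes that had passed through Gag was not tested, and Ty3, described below, held them with few or none on Gag. In YBL005W-B, whose Gag gene is YBL005W-A, the downstream share of the row was 13.1%, 14.2%, 13.9%, 16.2%, 22.7%, 22.8%, 26.2% and 30.4%, with exact 95% binomial intervals from 11% to 15.3% in Trans 1 and from 27% to 33.98% in ODIRA_B 2. These intervals cover counting error only. All 4 libraries of Trans and ODIRA_A lay below all 4 of ComQuad and ODIRA_B. YMR045C, another diverged Ty1 that shares most of its reads with YBL005W-B, had 12.5%, 12.7%, 13.2%, 14.8%, 22.98%, 21.03%, 26.2% and 31.1%. YNL284C-B, the third diverged Ty1 with both rows, had 16.2%, 12.7%, 17.2%, 18.9%, 24.6%, 24.5%, 33.7% and 31.5%. The same order of all 4 against all 4 was seen in 5 of 28 Ty1 elements, 1 of 10 Ty2 elements and the 1 Ty4 element, counted after the values were seen.

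In the Ty2 element of YBL100W-B the share was 15.6%, 15.7%, 13.0%, 20.8%, 25.3%, 22.6%, 20.6% and 24.6%, where ODIRA_A 2 lay within the range of the later strains. In YFL002W-A, the Ty2 Gag-Pol gene of highest density, it was 10.4%, 13.2%, 9.45%, 11.7%, 11.1%, 11.5%, 11.3% and 11.4%, and the strains overlapped. In the Ty4 element of YHL009W-B it was 21.8%, 21.3%, 17.6%, 14.3%, 26.1%, 27.2%, 28.2% and 24.8%. Its 4 earlier libraries again lay below the 4 later ones, but on 20 to 84 downstream RPFs a library, and the interval of ODIRA_B 1, from 18.1% to 40.1%, covered both Trans values.

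**Figure D5:**
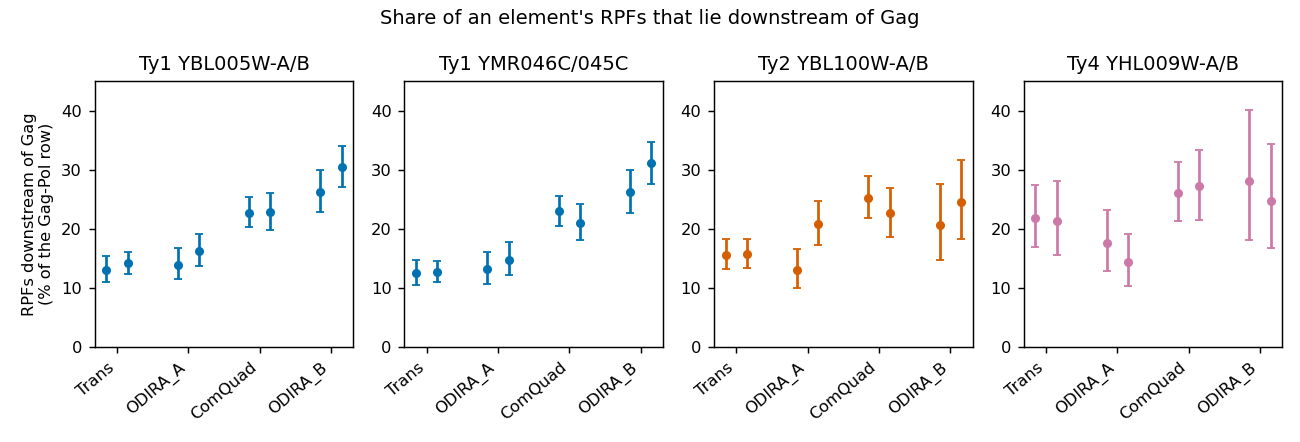
Downstream RPFs as a percentage of the Gag-Pol row, by strain, in 4 single elements. Points are libraries, and bars are exact 95% binomial intervals, which cover counting error only. In the 2 Ty1 elements plotted, YBL005W-A/B and YMR046C/045C, the share is 12.5% to 16.2% in Trans and ODIRA_A and 21.03% to 31.1% in ComQuad and ODIRA_B.

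Summed over the 28 Ty1 elements the downstream share was 27.9%, 22.8%, 33.8%, 36.7%, 43.6%, 46.4%, 49.7% and 46.6%. Per kb, downstream RPFs were 0.131, 0.0996, 0.172, 0.196, 0.261, 0.292, 0.334 and 0.294 of those on Gag. The 10 Ty2 elements had a ratio per kb between 0.0453 and 0.0723 in all 8 libraries. The sequence that allows reads to be assigned is not the same in Gag and in Pol, so the size of the ratio in Ty1 is not a rate of frameshifting, and it ran from 0.0787 to 0.527 with the choice of elements and of length. The order of the libraries does not depend on that length, which is the same in each.

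Gag-Pol rows were also tested on their downstream RPFs alone, an analysis added after the data were seen. With Gag rows unchanged, 73 of the 86 tested Ty rows were called over the 4 strains, against 44.2% of all genes. Of 28 Ty1 elements, 28 were higher in ODIRA_B than in ODIRA_A, 26 higher than in Trans and 22 higher than in ComQuad, beside 30, 22 and 27 of the 30 whole Gag-Pol rows, and against 23.1%, 19.4% and 25.1% of all genes called in either direction. For YBL005W-B the downstream value of Trans over ODIRA_B was −1.34 ± 0.224 (adjusted p = 0.00249), beside −0.01 for its Gag gene, and the difference of these values was not tested. Downstream RPFs were higher in Trans than in ODIRA_A in 8 of the 28 and in 3 of 10 Ty2 elements, against 4.61%, beside 18 of 30 and 7 of 10 whole rows.

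In Ty2, the test over all strains called every row by edgeR and 18 of 20 by DESeq2. By edgeR, Trans was higher than ComQuad and than ODIRA_B in all 20 rows, which share reads. The rows were less even for Trans over ODIRA_A, which ran from 0.36 to 0.99 and was called in 14. YBL100W-A was the Ty2 Gag gene with the smallest adjusted p over all strains (8.45e-05, edgeR). It held 675, 708, 380, 385, 455, 322, 131 and 129 RPFs, or 83.9, 93.5, 48.4, 40.8, 37.8, 39.99, 36.2 and 35.9 CPM. Both Trans libraries were far above the other 6. Trans over ODIRA_A was 0.99 ± 0.137 (adjusted p = 0.00363), over ComQuad 1.19 ± 0.137 (adjusted p = 0.000113) and over ODIRA_B 1.30 ± 0.146 (adjusted p = 0.000238).

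The Ty2 pair with the highest density, YFL002W-B (Gag) and YFL002W-A (Gag-Pol), is identical in sequence and counts to YGR161W-A and YGR161W-B. YFL002W-B held 167, 169, 92.7, 90.7, 87.8, 104, 82.0 and 90.6 CPM. Trans over ODIRA_A was 0.88 ± 0.123 (adjusted p = 0.00381). Over the 10 Ty2 Gag rows Trans over ODIRA_B ran from 0.68 to 1.30, and over the 10 Gag-Pol rows from 0.58 to 1.18.

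Ty3, which is related to the gypsy elements of flies, was read almost only downstream of Gag. YGR109W-B, a Gag-Pol row, held 430, 511, 375, 324, 695, 448, 133 and 144 RPFs, while its Gag row YGR109W-A held 6, 2, 2, 3, 4, 0, 0 and 0. YIL082W, the Gag row of the other Ty3, held 6, 2, 2, 3, 6, 0, 0 and 0. Low counts on these Gag rows did not go with unplaceable sequence, since 0% of their windows occurred over 10 times. The 2 elements together had 845, 250 and 267 downstream RPFs in the 3 libraries in which Gag had 0, and a count of 0 allows up to 3. In CPM, YGR109W-B had 53.4, 67.5, 47.7, 34.3, 57.7, 55.6, 36.7 and 40.02, with Trans above ODIRA_B by 0.65 ± 0.188 (adjusted p = 0.0348) and above ODIRA_A by 0.56 ± 0.177 (adjusted p = 0.106). YIL082W-A had 0.72 ± 0.181 (adjusted p = 0.0206) and 0.56 ± 0.169 (adjusted p = 0.0931).

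Ty4 rows did not pass the test over the 4 strains. The Gag gene YJL114W held 148, 109, 146, 173, 153, 108, 32 and 44 RPFs, or 18.4, 14.4, 18.6, 18.3, 12.7, 13.4, 8.84 and 12.2 CPM (adjusted p = 0.0568), with ODIRA_B lowest. YHL009W-B, the Gag-Pol gene of the other copy, held 31.3, 23.5, 29.7, 28.8, 26.7, 28.8, 19.6 and 28.1 CPM (adjusted p = 0.624), and its strains overlapped. ODIRA_A over ODIRA_B was 0.29 ± 0.209 for YHL009W-B and 0.81 ± 0.239 for YJL114W (adjusted p = 0.0338).

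Host genes known to act on Ty elements were examined in 5 lists of 79 genes in all, each of which was tested. By the test over the 4 strains 30 of the 79 were called, against 44.2% of all genes. With 1 library left out, the count ran from 12 of 79, where 26.8% of all genes were called (without ComQuad replicate 2), to 49, where 68.2% were (without Trans replicate 1). It was 14, 16 and 18 without ComQuad replicate 1 and ODIRA_B replicates 1 and 2, with 25.8%, 29.9% and 30.2% of all genes called. Of 15 genome integrity factors that limit Ty1 transposition 9 were called, of 22 genes for RNA polymerase III and its factors, which mark Ty1 target sites, 10, of 16 transcription activators of Ty1 6, of 12 histone gene regulators and chromatin factors 3, and of 14 RNA decay factors 2.

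Of the 15 genome integrity factors 8 were higher in ComQuad than in Trans and 1 lower, against 14.4% and 16.6% of all genes. Between ComQuad and ODIRA_A 6 were higher in ComQuad and 2 lower, against 16.4% and 16.8%. Comparisons with ComQuad also held the most calls over all genes. RRM3, a helicase that helps replication forks pass obstacles, held 16.4, 13.7, 16.3, 14.5, 28.1, 30.6, 23.2 and 28.1 CPM, and the earlier strains lay below the later ones. Trans over ComQuad was −0.96 ± 0.179 (adjusted p = 0.00256). RTT107, a scaffold in the repair of replication damage, held 55.05, 74.5, 41.0, 45.1, 94.2, 90.4, 48.3 and 54.5 CPM, with ComQuad highest and ODIRA_A lowest. ODIRA_A over ComQuad was −1.10 ± 0.159 (adjusted p = 0.000412).

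Among the activators, TEC1, whose product binds the Ty1 promoter region with Ste12, was the 1 named gene highest in ODIRA_B, at 15.8, 15.98, 17.1, 14.3, 15.03, 14.4, 24.0 and 31.4 CPM. ODIRA_A over ODIRA_B was −0.82 ± 0.202 (adjusted p = 0.0145) and ComQuad over ODIRA_B −0.91 ± 0.201 (adjusted p = 0.00782). TYE7, an activator of glycolytic genes and of Ty1, was higher in the earlier strains, at 279, 350, 300, 289, 169, 184, 205 and 225 CPM, with Trans over ComQuad at 0.83 ± 0.137 (adjusted p = 0.00117). GCN4, the activator of amino acid synthesis genes, was highest in ComQuad at 150, 130, 119, 105, 183, 177, 130 and 143 CPM, with ODIRA_A over ComQuad at −0.68 ± 0.124 (adjusted p = 0.0018). BAS1, an activator of purine and histidine genes, and RPC37, a subunit of RNA polymerase III, also differed, but lie within the chromosome XI segment of the CNVs, so that gene copy number and other differences cannot be told apart.

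HIR2 (adjusted p = 0.042, edgeR), ASF1 (0.0455) and DCP2 (0.0424) were also called in the remaining lists, beside SPT21 and DCP1. SPT21, needed for transcription of histone genes, held 24.2, 33.3, 21.1, 27.5, 59.5, 49.4, 23.2 and 24.7 CPM, with both ComQuad libraries above the other 6, and ODIRA_A over ComQuad was −1.16 ± 0.19 (adjusted p = 0.000899). DCP1, a subunit of the mRNA decapping enzyme, held 73.8, 72.4, 71.9, 78.1, 114, 123, 85.9 and 101 CPM, with Trans over ComQuad at −0.69 ± 0.125 (adjusted p = 0.00207). XRN1, the exonuclease of 5′ to 3′ decay, did not pass the test (adjusted p = 0.0955), at 234, 268, 239, 257, 196, 202, 207 and 224 CPM. Whether any of these genes bears on the levels of the Ty rows was not tested.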

How the data were processed

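RPF counts of 8 libraries, 2 biological replicates of each of 4 strains grown in glutamine-limited chemostats, were analysed. The authors deposited whole-number counts per feature of the R64-1-1 annotation, on the same strand, without normalization. Per the labels and the study's methods, fragments were selected by size, reads of rRNA, tRNA and snRNA were removed, and the rest were trimmed with cutadapt, aligned with STAR and counted with bedtools; the handling of reads with several matches is not given in the sources used here. Only 1 of the 90 Ty genes has a CDS row, so for the other 89 the count of the gene row was used, beside summed CDS counts for the 6600 other genes. The split of Pol from Gag that was planned by CDS parts was made by subtracting the Gag row from the Gag-Pol row. The build of the tables was checked by chromosome lengths, equal to those of the reference in 17 of 17.

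Strains were compared with edgeR 4.0.16 in R 4.3.3, by TMM normalization and the robust quasi-likelihood F test in 1 fit of all 8 libraries, with 4 residual degrees of freedom and a common biological coefficient of variation of 0.124. Genes needed at least 10 RPFs in at least 2 libraries. Adjusted p-values are Benjamini-Hochberg values over all 5813 genes tested. The script was tested on simulated data. Per the study's methods, the chemostat cultures of each strain were run in duplicate.

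The genes named were, per family, the Gag and the Gag-Pol gene of the highest RPF density; those within 20 kb of a CNV end or the translocation site; the 12 smallest adjusted p; and up to 4 host genes a list. The members, the lists and the tests were chosen with earlier results of these data known, and the sequence blocks and Ty1 Gag classes after their values were seen. Alternatives were DESeq2 1.42.0, RLE normalization, no count filter, gene rows for every gene, the replicate number as a block, each family as 1 feature, downstream RPFs only, other lengths and element choices for the Pol to Gag ratio, and each library left out in turn. The RNA-seq, mass spectrometry and ancestor were not analysed here.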

Additional observations from a re-analysis of the deposited data

How the results depend on the processing

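Under DESeq2, RLE normalization, no filter on counts and gene rows for every gene, all 7 counts of Ty rows called stayed within 1.5 times the values reported. With 1 library left out, the count over the 4 strains ran from 62 to 80, Trans against ODIRA_A from 0 to 65, Trans against ComQuad from 25 to 49, Trans against ODIRA_B from 27 to 56, ODIRA_A against ComQuad from 7 to 44, ODIRA_A against ODIRA_B from 43 to 58, and ComQuad against ODIRA_B from 21 to 50. The count of host genes ran from 12 to 49, and the share of all genes called moved with it. With each family summed to 1 feature, the members of called families numbered 86 over the 4 strains, 82 for Trans against ODIRA_A and 82 against ComQuad, 24 for Trans against ODIRA_B, where Ty1 as a whole was not called, 62 for ODIRA_A against ComQuad, 62 for ODIRA_A against ODIRA_B and 66 for ComQuad against ODIRA_B.

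The replicate number as a block gave 79 rows over the 4 strains, where 45% of all genes were called. In the 6 comparisons, in the order above, it gave 43, 43, 47, 24, 56 and 40. The correlation of deviations of libraries with the same number ran from −0.152 to 0.176, above 0.1 in the 3 pairs of strains without ComQuad and below 0 in the 3 with it, and no source ties equal numbers together. With the ComQuad numbers crossed, the block gave 78 over the 4 strains, where 47.2% of all genes were called. In the 6 comparisons it gave 44, 47, 49, 26, 55 and 48.

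The Pol to Gag ratio over all libraries for Ty1 was 0.199, and 0.527 as the median over elements, 0.465 per kb of windows found once, and 0.0787 over elements with at least 100 RPFs on Gag in every library. For Ty2 it was 0.0582, and 0.114 and 0.0892 per kb of windows found at most 10 times or once. For Ty4 it was 0.0839, and 0.451 per kb of windows found once. The choice of 100 RPFs left no Ty3 or Ty4 element. The 8 ratios of family totals between strains moved by less than the replicate spread. With 2 libraries a strain, leaving 1 out always shifts the strain's mean by less than its SD. This result therefore does not show that the ratios are stable. The cause of these changes was not tested. Depth was lowest in ODIRA_B.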
